A study of Mus musculus with 12 samples.

Results

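The FGF set described here holds the mouse genes for fibroblast growth factors, their receptors and the feedback genes of their signal, in cerebellum at postnatal day 14. Members were taken by gene symbol among the protein-coding genes of the deposited table of differences: the Fgf ligands, Fgfr1 to Fgfr4, Fgfrl1, Klb, the Sprouty genes Spry1, Spry2 and Spry4, the Spred genes, Dusp6, Etv4 and Etv5. The rule found 37 of the 55385 listed genes, and 28 of them had enough reads to be tested. The data are RNA-seq of whole cerebellum, with 3 wild-type (WT) and 3 EED-/- libraries, both on the C57BL/6 strain. EED-/- stands for a conditional knockout of Eed, a core subunit of the complex that places the repressive histone mark H3K27me3; no Cre driver or deleted exon is named in the labels, so which cells lost Eed is not known from them. The labels do not state whether each library is a different animal; the p-values reflect spread among libraries only, which may be technical.

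FGF ligands bind receptor tyrosine kinases together with heparan sulphate. The receptors signal through the adaptor Frs2 and the RAS-ERK cascade, and ERK activity in turn induces the inhibitors Sprouty, Spred and Dusp6 and the ETS transcription factors Etv4 and Etv5. In the cerebellum the pathway is known for Fgf8 and Fgf17, signals of the isthmus that pattern the embryonic territory, and for Fgf9, a neuronal ligand that acts on Bergmann glia. The FGF homologous factors Fgf11 to Fgf14 share the fold of the ligands, but they stay inside neurons and bind voltage-gated sodium channels; mutations of FGF14 cause a spinocerebellar ataxia.

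Libraries held 19621814 to 20366173 estimated counts. Expression is in CPM (counts scaled to a common library total, with TMM factors), and means carry the SD of a genotype's libraries (n = 3). Differences are log2 fold changes of EED-/- over WT from edgeR's quasi-likelihood test, and a gene is called where its p-value, adjusted by Benjamini-Hochberg over all 18091 tested genes, is under 0.05. Values for single libraries are listed in the order of replicates 1, 2 and 3. Eed, which checks the labels, was at 20.1, 26.6 and 23.5 CPM in the WT and at 11.6, 9.31 and 11.3 CPM in the EED-/- libraries (log2 fold change -1.12, SE 0.154, adjusted p = 0.0015). The share of mitochondrial counts was 3.21%, 6.37% and 5.22% in the WT and 7.16%, 6.45% and 8.04% in the EED-/- libraries. WT replicate 1 was the lowest, and every EED-/- library was above every WT library.

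Of the 28 tested members 2 rose, Fgfrl1 and Spry4, and 5 fell, Spred2, Spred3, Fgf14, Fgf5 and Fgf23. The share called higher was 7.14%, against 11.7% of all tested genes, and the share called lower was 17.9%, against 14.1%. The counts were therefore near the background of this comparison. The median log2 change was 0.08 over the tested members and -0.03 over all tested genes. Libraries of the genotypes did not overlap for 17 of the 28 members, 9 higher and 8 lower in EED-/-, which is 60.7% against 43.9% of all tested genes; the 7 called members are among them. Upper-quartile scaling moved the median of all genes from -0.03 to 0.09. With it 5 members were called higher, where 15.6% of all genes were, and 4 lower, where 9.87% were. Small differences on the log2 scale therefore hold only relative to TMM scaling.

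The calls of 3 members, Fgfrl1, Spred2 and Fgf5, held in each of the 13 alternative fits, and the windows around their transcription starts are shown to let their base composition be compared. Each run is 300 bases, from 250 before to 50 after a RefSeq start (GRCm38.p6), read 5′ to 3′ on the gene's strand, with CG dinucleotides in capitals. Fgfrl1 is taken from chr5:108693979-108694278 on the plus strand, Fgf5 from chr5:98253934-98254233 on the plus strand, and Spred2 from chr11:19924192-19924491 on the plus strand.
Fgfrl1: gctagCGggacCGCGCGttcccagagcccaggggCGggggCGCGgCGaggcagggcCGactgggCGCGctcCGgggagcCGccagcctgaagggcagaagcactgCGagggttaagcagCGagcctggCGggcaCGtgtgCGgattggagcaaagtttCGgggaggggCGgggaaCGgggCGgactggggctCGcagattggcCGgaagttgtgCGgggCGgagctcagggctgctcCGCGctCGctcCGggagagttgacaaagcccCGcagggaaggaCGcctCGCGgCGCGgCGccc
Fgf5: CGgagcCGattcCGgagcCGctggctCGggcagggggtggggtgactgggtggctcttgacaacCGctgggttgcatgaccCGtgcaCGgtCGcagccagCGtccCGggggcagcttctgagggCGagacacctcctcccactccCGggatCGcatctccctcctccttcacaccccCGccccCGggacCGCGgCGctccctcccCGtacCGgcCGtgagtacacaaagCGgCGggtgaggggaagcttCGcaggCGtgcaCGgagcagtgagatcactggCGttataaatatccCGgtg
Spred2: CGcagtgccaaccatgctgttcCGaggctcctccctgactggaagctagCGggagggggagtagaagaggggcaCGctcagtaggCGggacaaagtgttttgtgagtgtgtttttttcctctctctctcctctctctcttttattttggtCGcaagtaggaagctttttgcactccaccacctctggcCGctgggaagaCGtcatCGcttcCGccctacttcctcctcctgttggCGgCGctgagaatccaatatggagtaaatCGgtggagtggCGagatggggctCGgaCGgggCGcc

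The Fgfrl1 window, 1847 bases from the gene's outermost start in GENCODE, held 37 CG dinucleotides, a number reached by 5.58% of the 32851 RefSeq promoters of this length. That of Fgf5 held 29, a number reached by 12.9%, and its start is the GENCODE start of the gene. That of Spred2, 67 bases from the GENCODE start, held 17, a number reached by 31.4%. The median of all promoters was 7, and the median of the 36 member promoters outside chromosome 18 was 19. The motif CCGGAAG, a core bound by ETS factors, was searched on both strands and lay once in the Fgfrl1 window and in no other of the 36, while 8.86% of all promoters held it. The GC box GGGCGG, also searched on both strands and overlapping CG dinucleotides by its own letters, lay in 23 of the 36 and in 35.7% of all promoters. These matches describe the letters of the windows and say nothing of binding. RefSeq windows were found for 28 of the 37 member symbols.

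**Figure D1:**
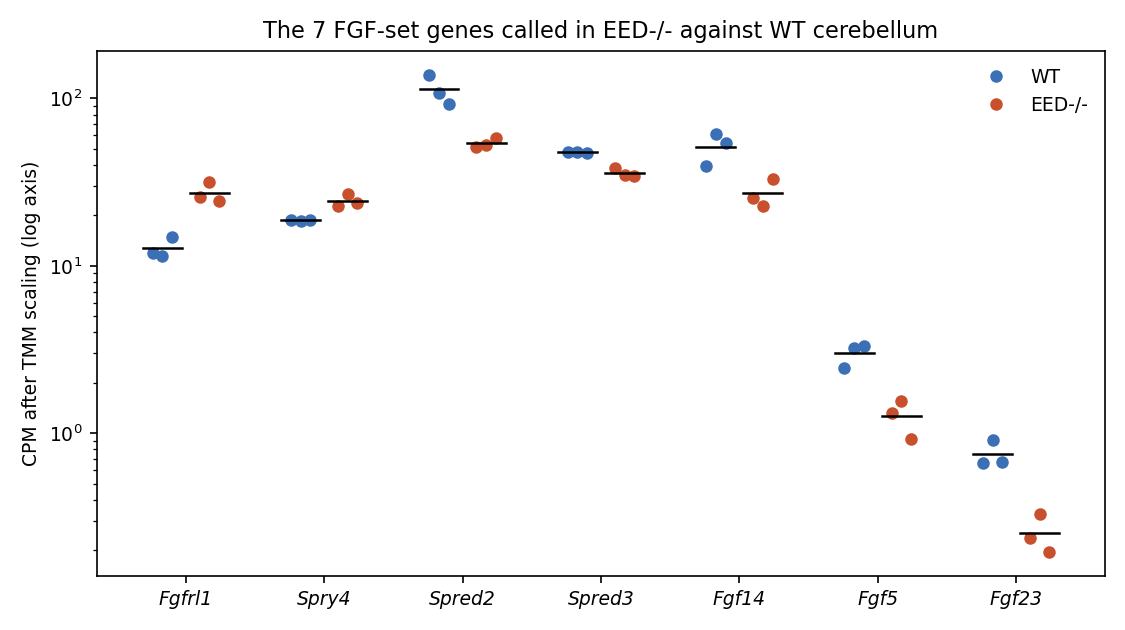
CPM after TMM scaling (log axis) of the 7 called members in each library; points are the 3 libraries of a genotype and the black line is their mean. In none of the 7 do the WT and EED-/- libraries overlap, and levels of different genes are not corrected for length here.

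Among the receptors, Fgfrl1 rose about 2.13-fold and the 4 receptors with a kinase domain were not called. Fgfrl1 encodes a receptor that binds ligands but has no tyrosine kinase domain. It lies on chromosome 5 at 108692382 to 108706924 (plus strand, GRCm38). It stood at 11.95, 11.48 and 14.94 CPM in the WT libraries against 25.7, 31.6 and 24.3 CPM in those of EED-/-. Every EED-/- library was above every WT library, and the rise (log2 fold change 1.09, SE 0.157, adjusted p = 0.00194) ranged from 0.97 to 1.22 on the log2 scale over the alternatives.

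The 3 abundant kinase receptors had log2 changes between -0.25 and 0.22. Fgfr3, the receptor typical of astroglia, was at 129.8, 111.2 and 132.8 CPM in WT and at 144.4, 156.4 and 133.6 CPM in EED-/- libraries. The genotypes did not overlap, though WT replicate 3 and EED-/- replicate 3 were nearly level, and the log2 change was 0.22 (95% interval -0.05 to 0.49, adjusted p = 0.214), or 0.14 without WT replicate 2. Fgfr1, expressed in neurons and glia, was at 127 ± 20.4 CPM in WT and 109 ± 7.21 CPM in EED-/-, with overlapping libraries and a log2 change of -0.21 (95% interval -0.53 to 0.10). That change was -0.04 without WT replicate 1, the highest library, and -0.32 without WT replicate 2. Fgfr2, a receptor of glia and oligodendrocytes, was at 58.8 ± 3.54 and 49.6 ± 7.12 CPM (log2 change -0.25, 95% interval -0.54 to 0.05), and its change was -0.13 without EED-/- replicate 1. Fgfr4, a receptor known from liver and embryonic muscle, was scarce: 5, 6 and 10 counts in the WT and 11, 29 and 14 counts in the EED-/- libraries. Its log2 change of 1.22 had an SE of 0.479 and was not called (adjusted p = 0.0971). Without EED-/- replicate 2, which holds 29 of the 54 EED-/- counts, it was 0.71.

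Per kb of exons, which allows levels of different genes to be compared, Fgfr3 led the receptors at 17.4 ± 1.63 CPM per kb in WT. Fgfr1 followed at 12.9 ± 2.07, Fgfr2 at 5.70 ± 0.343, Fgfrl1 at 4.597 ± 0.673 and Fgfr4 at 0.103 ± 0.0382 CPM per kb. In EED-/- the level of Fgfrl1, 9.78 ± 1.40 CPM per kb, lay above that of Fgfr2, 4.80 ± 0.690, and came near that of Fgfr1, 11.1 ± 0.730. The summed level of the 4 kinase receptors was 36.1 ± 3.11 CPM per kb in WT and 36.4 ± 2.44 in EED-/- (exact two-sided permutation p = 0.9). Within this sum Fgfr3 made up 46.9%, 47.6% and 50.4% in WT and 58.0%, 55.8% and 53.2% in EED-/- libraries. Fgfr1 made up 35.5 ± 2.92% in WT and 30.5 ± 0.526% in EED-/-. Neither share overlapped between genotypes, and the two-sided exact permutation test gave p = 0.1 for each, which is as low as 3 against 3 libraries can reach. Reads shared with other genes limit these values: 13.9% of the exon bases of Fgfr3 overlap G630022F23Rik on the opposite strand, and 3.04% of those of Fgfr2 overlap Ctbp2.

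**Figure D2:**
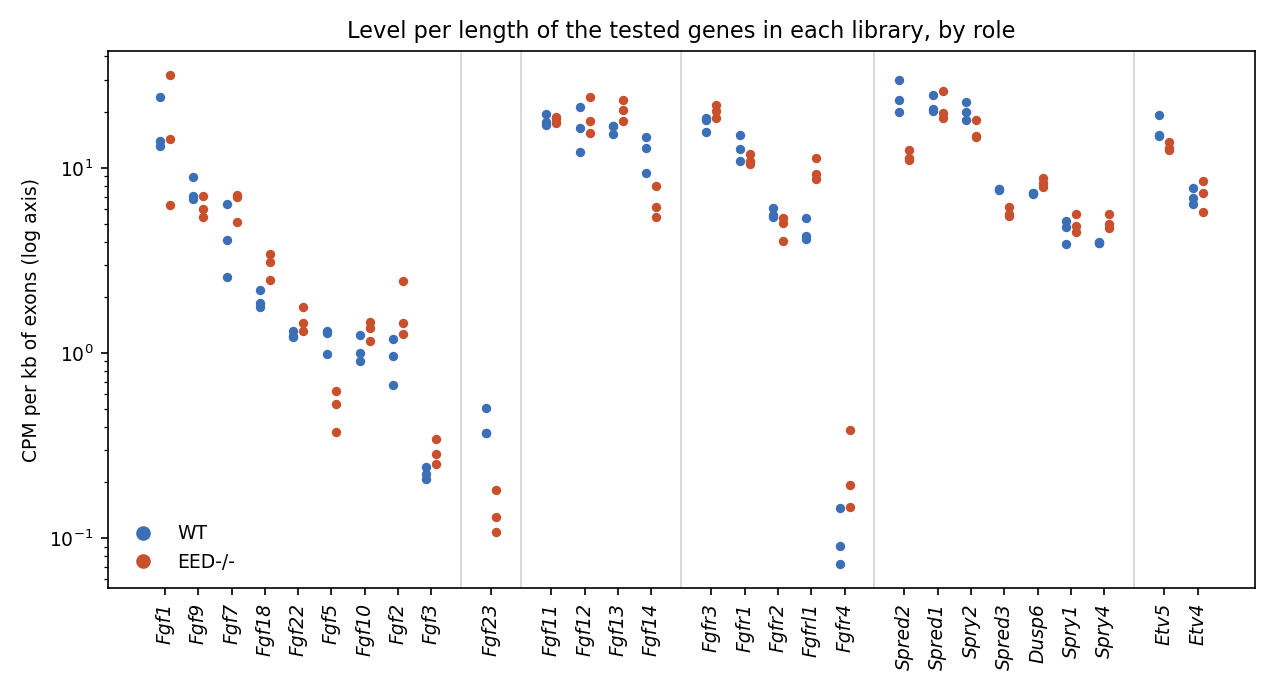
CPM per kb of annotated exons (log axis) of the 28 tested members in each of the 3 WT and 3 EED-/- libraries, grouped from left to right into secreted ligands, the endocrine ligand, FGF homologous factors, receptors, feedback inhibitors and ETS factors, and ordered by WT mean within a group. Receptors other than Fgfr4, FGF homologous factors and feedback genes lie above 3 CPM per kb in every library, while most secreted ligands lie below.

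The feedback inhibitors split in direction: Spred2 and Spred3 fell, Spry4 rose, and Spred1, Spry1, Spry2 and Dusp6 were not called. Spred proteins bind neurofibromin and damp RAS at the membrane. Spred2 (chromosome 11, 19924375 to 20024026, plus strand) was at 138.6, 107.9 and 92.8 CPM in WT and at 51.2, 52.5 and 57.9 CPM in EED-/- libraries. WT libraries varied, with replicate 1 highest, yet the lowest of them was above every EED-/- library. The 2.1-fold fall (log2 fold change -1.07, SE 0.156, adjusted p = 0.002) was -0.85 without WT replicate 1.

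Spred3 was steady in WT at 47.8, 47.5 and 47.4 CPM and lower in each EED-/- library at 38.2, 34.9 and 34.2 CPM. The fall was 1.33-fold (log2 fold change -0.41, SE 0.101, adjusted p = 0.0187). The call ended with upper-quartile scaling (log2 change -0.30, adjusted p = 0.0655), with library size alone (adjusted p = 0.0603), with no filter (adjusted p = 0.0559) and with the replicate number as a block (adjusted p = 0.0750). It also ended without WT replicate 3 (-0.42) and without EED-/- replicate 1 (-0.46), 2 (-0.39) or 3 (-0.33), with adjusted p-values from 0.0559 to 0.0835. Spred1, the gene mutated in Legius syndrome, was at 149 ± 16.7 CPM in WT and 145 ± 27.7 CPM in EED-/- (log2 change -0.04, 95% interval -0.39 to 0.32). Its sign turned positive when scaled by upper quartiles or by library size alone. Over the 3 Spred genes the summed level was 54.1 ± 4.97 CPM per kb in WT and 38.8 ± 4.64 in EED-/-, with every EED-/- library below every WT library (exact permutation p = 0.1). Spred2 held 45.0 ± 5.84% of that sum in WT and 30.2 ± 1.82% in EED-/-, and Spred1 40.8 ± 5.05% and 54.9 ± 3.73%.

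Sprouty proteins inhibit receptor signalling upstream of ERK, and Spry4 was the member that rose. It was at 18.7, 18.6 and 18.8 CPM in WT and at 22.6, 26.8 and 23.7 CPM in EED-/- libraries. The genotypes did not overlap, and the 1.30-fold rise (log2 fold change 0.38, SE 0.116) was close to the threshold, with an adjusted p of 0.0418. It was not called without WT replicate 2 (0.37), WT replicate 3 (0.38), EED-/- replicate 1 (0.43) or EED-/- replicate 2 (0.31), where adjusted p-values were 0.0847 to 0.146, nor with no filter (adjusted p = 0.0760) or with the replicate block (adjusted p = 0.129). Spry2 pointed the other way, at 47.6, 41.7 and 37.8 CPM in WT and 30.5, 37.8 and 31.1 CPM in EED-/- (log2 change -0.35, SE 0.135, adjusted p = 0.0885). Its highest EED-/- library and lowest WT library were almost level, and the change was -0.21 without WT replicate 1. Spry1 was at 13.4 ± 1.94 and 14.5 ± 1.65 CPM (log2 change 0.12, 95% interval -0.24 to 0.48; 0.00 without WT replicate 2 and 0.24 without EED-/- replicate 3), and 24.4% of its exon bases are shared with a gene on the opposite strand. Per length Spry2 was the main Sprouty gene, with 70.3 ± 3.29% of the summed Sprouty level in WT and 61.1 ± 0.635% in EED-/-, while Spry4 held 13.7 ± 1.09% and 19.8 ± 0.607% (exact permutation p = 0.1 for each).

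Dusp6, the phosphatase that inactivates ERK in the cytoplasm, and the ETS factors are widely used as readouts of FGF signalling, and none of the 3 was called. Dusp6 was at 22.9, 22.9 and 22.6 CPM in WT and at 26.0, 24.7 and 27.6 CPM in EED-/- libraries. The groups did not overlap, and the log2 change was 0.19 (95% interval -0.05 to 0.44, adjusted p = 0.22). Etv5, an ETS factor of Bergmann glia, was at 78.8, 61.6 and 61.1 CPM in WT and at 51.3, 56.3 and 52.7 CPM in EED-/- libraries. Its log2 change of -0.33 (95% interval -0.62 to -0.04) had an unadjusted p of 0.0319 and an adjusted p of 0.0957, and it was -0.15 without WT replicate 1, the highest library. Etv4 was at 21.8 ± 2.11 and 22.4 ± 4.30 CPM with overlapping libraries (log2 change 0.04, 95% interval -0.33 to 0.40), and its sign turned without WT replicate 2 or EED-/- replicate 2.

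**Figure D3:**
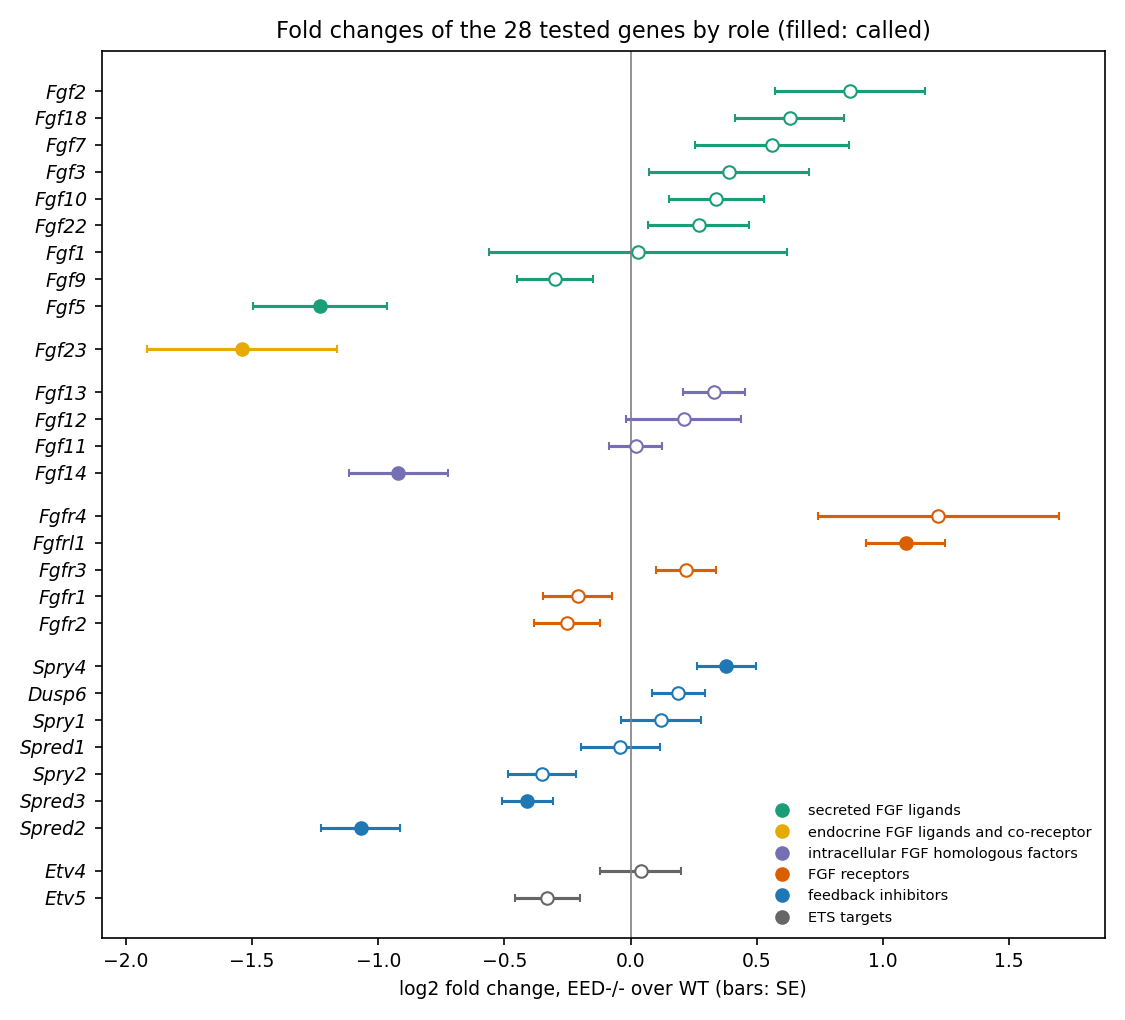
Log2 fold change of EED-/- over WT, with its SE as the bar, for the 28 tested members grouped by role; filled symbols passed the adjusted p threshold of 0.05. Each of the groups with at least 4 tested members holds members on both sides of 0, and Fgf1 and Fgfr4 have the widest bars.

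Among the FGF homologous factors Fgf14 fell and the other three were not called. Fgf14 (chromosome 14, 123977907 to 124677127, minus strand) was at 39.3, 61.4 and 53.8 CPM in WT and at 25.6, 22.7 and 33.2 CPM in EED-/- libraries. All EED-/- libraries were below all WT libraries, although WT replicate 1 and EED-/- replicate 3 came close. The fall was 1.9-fold (log2 fold change -0.92, SE 0.196, adjusted p = 0.0103), and without EED-/- replicate 1 it was -0.88 with an adjusted p of 0.0508, just past the threshold. Fgf13, the X-linked member, was at 67.5, 61.6 and 68.0 CPM in WT and at 92.9, 72.1 and 82.5 CPM in EED-/- libraries. These did not overlap, and the log2 change of 0.33 (SE 0.123, adjusted p = 0.0842) was called only with upper-quartile scaling (0.44, adjusted p = 0.0316) and library size alone (0.43, adjusted p = 0.0364). Fgf12 was at 103 ± 28.1 and 119 ± 27.3 CPM and Fgf11 at 54.8 ± 3.88 and 55.6 ± 1.98 CPM, with overlapping libraries. The 95% interval of the log2 change was -0.32 to 0.73 for Fgf12 and -0.22 to 0.26 for Fgf11. Leaving out single libraries moved Fgf12 between 0.06 (EED-/- replicate 3) and 0.42 (WT replicate 2).

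The share of Fgf14 among the homologous factors was lower in every EED-/- library. Summed over the 4 genes the level was 63.3 ± 5.50 CPM per kb in WT and 64.4 ± 7.06 in EED-/- (exact permutation p = 0.8). Fgf14 made up 16.3%, 21.3% and 20.4% of it in WT and 9.44%, 9.49% and 11.1% in EED-/- libraries (exact permutation p = 0.1). The difference of -9.30 percentage points ranged from -10.8 to -8.30 when single libraries were left out. The share of Fgf13 was 26.0 ± 3.45% in WT and 32.0 ± 3.51% in EED-/- (exact permutation p = 0.2). Shares and sums were tested 28 times in the 5 families of genes, and with 3 libraries each no adjusted value can pass 0.05. The lengths are those of all annotated exons, so shares shift if short isoforms dominate.

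Of 10 genes of voltage-gated sodium channels, the partners of the homologous factors, 4 rose (median log2 change 0.32), where 11.7% of all tested genes did. In addition, 1 was called lower by DESeq2, with no filter, and without WT replicate 1 or 2. Scn3a, a channel typical of immature neurons, rose from 18.5 ± 6.10 to 61.2 ± 3.94 CPM. Scn9a rose 2.93-fold and the auxiliary subunit Scn3b 1.39-fold.

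Of the 15 secreted ligands 9 were tested, and Fgf5 was the called gene. Fgf5, known as a brake on hair growth, lies on chromosome 5 at 98254184 to 98277030. It was at 2.46, 3.22 and 3.31 CPM in WT and at 1.33, 1.55 and 0.930 CPM in EED-/- libraries, which is 48, 60 and 64 counts against 28, 33 and 19. The groups did not overlap, and the fall was 2.35-fold (log2 fold change -1.23, SE 0.266, adjusted p = 0.0109).

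Fgf2, a ligand without a classical signal peptide that is made by astroglia, stood above WT in every EED-/- library but was not called by edgeR with TMM scaling and the filter. It was at 4.57, 8.10 and 6.51 CPM in WT and at 9.80, 8.61 and 16.7 CPM in EED-/- libraries. EED-/- replicate 3 was far above its partners, and the log2 change of 0.87 (SE 0.297, adjusted p = 0.0636) was 0.58 without it. DESeq2 gave 0.90 with an adjusted p of 0.0184, and Fgf2 was also called without WT replicate 2 (1.07, adjusted p = 0.0420) and by edgeR with RLE (adjusted p = 0.0488), upper-quartile scaling (0.99, adjusted p = 0.0376), library size alone (adjusted p = 0.0377) and no filter (adjusted p = 0.0316). Nudt6, on the opposite strand, shares 9.44% of the exon bases of Fgf2, and the sources used here do not give strand-specific counting, so reads of the overlap cannot be told apart.

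Fgf18, of the same subfamily as Fgf8 and Fgf17, was at 2.10, 2.20 and 2.58 CPM in WT and at 3.69, 4.04 and 2.94 CPM in EED-/- libraries. These did not overlap, and its log2 change of 0.63 (SE 0.215, adjusted p = 0.0618) was called without EED-/- replicate 3 (0.81, adjusted p = 0.0432) and with upper-quartile scaling (0.75, adjusted p = 0.0340). Fgf7, an organiser of presynaptic terminals that is also made by mesenchyme, spread widely in WT at 8.31, 20.8 and 13.2 CPM, and was at 16.5, 22.7 and 23.2 CPM in EED-/- libraries. WT replicate 2 overlapped EED-/-, and without it the log2 change moved from 0.56 (adjusted p = 0.22) to 0.94 (adjusted p = 0.0225). Fgf9 was at 35.3 ± 5.39 and 28.6 ± 3.94 CPM with overlapping libraries (log2 change -0.30, 95% interval -0.65 to 0.04; -0.17 without WT replicate 2). The scarcer Fgf10, Fgf22, which also organises presynaptic terminals, and Fgf3 had log2 changes of 0.34, 0.27 and 0.39 with adjusted p-values of 0.222, 0.363 and 0.412. Fgf22 was at 0.14 without EED-/- replicate 2 and at 0.42 without EED-/- replicate 3.

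Fgf1, the most abundant ligand, differed more between libraries of a genotype than between the genotypes. It was at 131.4, 76.2 and 71.4 CPM in WT libraries and at 77.7, 34.6 and 173 CPM in those of EED-/-. The highest and the lowest library were both EED-/-. Its biological coefficient of variation, 0.491, was above that of 98.1% of tested genes, and the 95% interval of the log2 change ran from -1.42 to 1.48 around 0.03. Without EED-/- replicate 3 the change was -0.67, not called. Fgf1 alone held 60.8%, 38.5% and 42.4% of the summed level of the 9 tested secreted ligands per kb in WT, and 42.5%, 23.2% and 58.4% in EED-/- libraries.

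Of the 4 genes for endocrine ligands and their co-receptor only Fgf23 passed the filter on low counts. Fgf23, the phosphate hormone of bone, had 13, 17 and 13 counts in WT and 5, 7 and 4 counts in EED-/- libraries. That is 0.750 ± 0.140 CPM against 0.254 ± 0.0684 CPM, and the groups did not overlap. The fall was 2.9-fold (log2 fold change -1.54, SE 0.375, adjusted p = 0.0184). Its call ended with DESeq2 (-1.53, adjusted p = 0.137) and without WT replicate 2 (-1.38), WT replicate 3 (-1.61), EED-/- replicate 1 (-1.49) or EED-/- replicate 3 (-1.33), with adjusted p-values of 0.0523 to 0.0837. It therefore rests on few counts and on single libraries.

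Fgf15, the mouse counterpart of human FGF19 and a gene of the embryonic midbrain and hindbrain, was too scarce to pass the filter on low counts. It had 0, 1 and 0 counts in WT and 8, 12 and 4 counts in EED-/- libraries. The 1 count against 24 gave a ratio of 23.5 with a 95% exact conditional binomial interval of 3.84 to 968, which covers counting error only. All EED-/- libraries were above all WT libraries. DESeq2 gave an adjusted p of 0.0368 and edgeR without the filter gave 0.00347. The adjusted p was 0.0364 in the authors' deposited table. Its neighbours on chromosome 7 in the same orientation are Fgf3 (144838083 to 144844436) and Fgf4 (144847367 to 144865243). Fgf15 itself spans 144896531 to 144900953. Fgf3 summed to 30 and 43 counts and Fgf4 had 0 counts in all 6 libraries. Part of the Fgf15 counts may belong to the antisense gene Gm26793, which shares 24.9% of its exon bases.

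The isthmus ligands Fgf17 and Fgf8 were also under the filter. Fgf17 had 3, 1 and 7 counts in WT and 16, 10 and 8 counts in EED-/- libraries, a ratio of 3.03 with a 95% counting interval of 1.5 to 6.63, and DESeq2 did not call it (adjusted p = 0.281). Fgf8 had 0 counts in WT and 0, 1 and 2 counts in EED-/- libraries, so no fold is given. Fgf6, Fgf16, Fgf20 and Fgf21 had at most 7 counts over a genotype. Klb, the co-receptor of the endocrine ligands, had 15 and 22 counts (ratio 1.44, interval 0.713 to 2.98). Beside Fgf8 and Fgf17, the factors that set up the isthmus were 4 higher and 1 lower of 8 tested (median log2 change 0.70). Among all tested genes 11.7% were called higher and 14.1% lower, and the uncalled isthmus factors went both ways. En2, which later marks granule neurons too, fell from 136 ± 26.3 to 21.8 ± 0.692 CPM. En1 rose from 5.24 ± 0.982 to 11.2 ± 1.97 CPM and Pax5 from 2.44 ± 1.33 to 10.5 ± 2.49 CPM, while Pax8 and Gbx2 rose 1.84-fold and 3.07-fold. The number called higher was 2 when WT replicate 2 or 3, or EED-/- replicate 2 or 3, was left out.

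Of 22 adaptors and kinases of the RAS-ERK cascade, 4 fell and 1 rose, with a median log2 change of -0.06. Over all tested genes 14.1% fell and 11.7% rose, so the list's falls were near the background and its rises below it. Frs2, the adaptor docked to FGF receptors, fell from 77.6 ± 0.958 to 58.2 ± 4.31 CPM. Grb2, which links it to RAS activation, fell from 203 ± 35.7 to 138 ± 3.501 CPM, and the docking protein Gab1 fell 1.29-fold. The adaptor Shc1 rose 1.42-fold, and no member of the list was called higher with the replicate block or without WT replicate 2 or 3 or EED-/- replicate 1 or 2. DESeq2 called 3 of the 22 lower. The falls were no longer called with upper-quartile scaling or without EED-/- replicate 1 or 2, and 1 was called without WT replicate 3.

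Of 24 extracellular and membrane modulators 7 rose and 2 fell, with a median log2 change of 0.17. The background of this comparison was 11.7% for rises and 14.1% for falls among the 18091 genes in the test. The sulphatases Sulf1 and Sulf2, which trim the heparan sulphate that ligands need, rose 2.02-fold and 1.81-fold, Sulf2 from 112 ± 8.56 to 203 ± 20.4 CPM. Glce, the epimerase of heparan sulphate synthesis, fell from 92.8 ± 7.62 to 46.0 ± 5.82 CPM. Flrt2, a membrane protein that binds FGF receptors, and the glypican Gpc3 rose 1.97-fold and 2.81-fold, and Fgfbp3, a carrier of secreted ligands, fell 1.76-fold. When single libraries were left out, 5 to 9 were called higher and 1 to 4 lower, the count of 1 arising when replicate 1 of either genotype was dropped and that of 4 when WT replicate 2 was.

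Other genes that respond to ERK went both ways: 4 of 11 tested fell and 2 rose, with a median log2 change of -0.05. For comparison, 14.1% of all tested genes fell and 11.7% rose. Dusp5, a nuclear ERK phosphatase, fell from 75.5 ± 8.85 to 10.7 ± 2.08 CPM (log2 fold change -2.81, adjusted p = 4.03e-05), and Dusp4 from 15.4 ± 3.33 to 6.69 ± 0.561 CPM. The ETS factor Etv1, also a marker of granule neurons, fell from 367 ± 73.7 to 53.8 ± 17.6 CPM, and Ier2 fell 1.67-fold. Ccnd1 and Myc, both growth genes, rose 1.68-fold and 2.12-fold; 1 of the pair was called without EED-/- replicate 1.

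**Figure D4:**
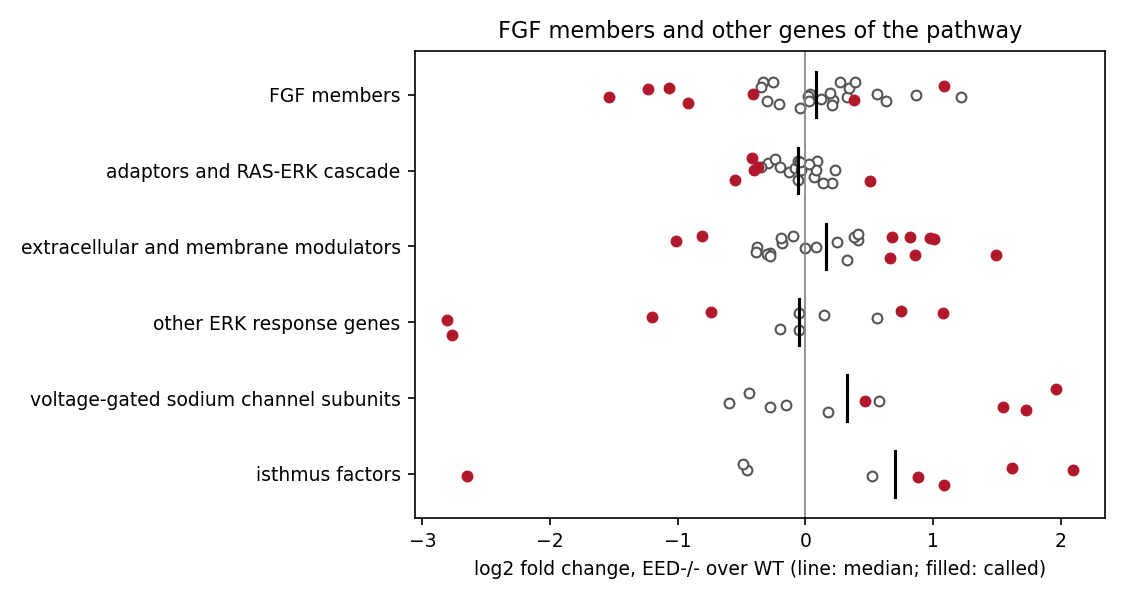
Log2 fold change of EED-/- over WT for the 28 tested FGF members and 5 lists of other genes. The lists are the RAS-ERK cascade, extracellular and membrane modulators, other ERK response genes, sodium channel subunits and isthmus factors. Each point is a gene (spread vertically at random), filled points were called and the black line is the median. The members centre near 0, and the largest falls are those of Dusp5, Etv1 and En2.

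Cell type markers moved with genotype as well, and in bulk tissue fewer cells of a type and less RNA per cell cannot be told apart. All 12 granule neuron markers fell, and their summed level was 4940 to 6073 CPM in WT and 608 to 848 CPM in EED-/- libraries. All 10 meningeal fibroblast markers rose (706 to 784 against 1282 to 1912 CPM), as did 11 of 12 of skeletal muscle (8.48 to 10.7 against 85.9 to 134 CPM), 8 of 10 of microglia (190 to 204 against 346 to 390 CPM) and 6 of 8 of oligodendrocyte progenitors (692 to 797 against 902 to 1268 CPM). Bergmann glia and astrocyte markers were mixed, with 3 higher and 4 lower of 14 (5815 to 6069 against 4918 to 6718 CPM). Of 10 markers of myelinating oligodendrocytes 4 fell (19630 to 23990 against 19420 to 21900 CPM), and of 10 of endothelium and mural cells 4 rose (504 to 524 against 641 to 757 CPM). The 6 blood genes were not called, with a median log2 change of 1.52 and an uneven sum, 258 to 559 CPM in WT and 361 to 1782 CPM in EED-/- libraries. Of 10 Purkinje cell markers 1 fell, and of 9 of inhibitory interneurons 2 rose and 3 fell. Of 7 tested markers of granule cell progenitors 3 rose (Ccnd2, Top2a and Mki67), 1 fell (Barhl1) and the rest were not called. Of 8 markers of choroid plexus and ependyma 2 rose. Beside these counts, 11.7% of all tested genes were called higher and 14.1% lower. No marker was at 0 counts over a whole genotype. The part of these shifts in the values of the FGF members was not tested.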

How the data were processed

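RNA-seq libraries of cerebellum, 3 WT and 3 EED-/-, were compared; 6 ChIP-seq samples were not analysed here. The deposited table holds estimated counts per Ensembl gene, not scaled between libraries; the submitters' processing notes name Salmon 1.1.0, DESeq2 1.26.0, Trimmomatic 0.36, Bowtie2 2.4.1, MACS2 and the builds GRCm38 and mm10 without roles. Per the file headers, the authors' deposited table of differences gives DESeq2 columns: mean normalised signal, log2 fold change, Wald score, p-value and adjusted p-value. It supplied symbols and gene types. Whether counting used strand is not stated in these sources.

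Counts were rounded and filtered with edgeR's filterByExpr, which kept 18091 genes, and tested with edgeR 4.0.16 in R 4.3.3 (TMM, robust quasi-likelihood F test, two-sided, genotype as the only term). The SE was taken as |log2 change| over the root of the F statistic, and 95% intervals use the fit's t quantile. Exon lengths and positions came from GENCODE M21 (GRCm38), matched by unversioned identifier for all 37 members. Alternatives were RLE, upper-quartile and no scaling, no filter, DESeq2 1.42.0, limma-voom 3.58.1, a replicate block and leaving out each library. The procedure was tested on simulated counts. Between libraries of a genotype, chi-square over its degrees of freedom was 8.46 to 56.1, above sampling noise, and all 6 libraries were kept apart.

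Every member is accounted for; of other lists, the named genes are up to 4 called genes per direction with the smallest adjusted p, of which 2 are not reported here. The members and all lists were chosen with earlier results of these data known. Libraries held 19621814 to 20366173 counts, so genes under 1 CPM rest on few reads. Counting intervals cover counting error only, since they pool the libraries of a genotype and leave out the spread between them. Reads carry no molecular identifiers.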

Additional observations from a re-analysis of the deposited data

How the results depend on the processing

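Fgfrl1, Spred2 and Fgf5 kept their direction and call in all 13 alternatives, as did Eed. Members called higher numbered 5 under upper-quartile scaling and 5 under library size alone; Fgf2, Fgf18 and Fgf13 then joined Fgfrl1 and Spry4. Leaving out single libraries gave 1 to 3 members called higher and 2 to 5 lower. Over all genes, the higher calls then ranged from 1205 to 2176 and the lower from 1335 to 2476, with fewer samples in each such fit.

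The log2 changes that turned sign were those of 4 members that no alternative called. Leaving out single libraries, Etv4 ranged from -0.10 to 0.23 (-0.03 without WT replicate 2, -0.10 without EED-/- replicate 2), and Fgf11 from -0.02 to 0.13 (0.00 without WT replicate 2, -0.02 without WT replicate 3). Fgf1 ranged from -0.67 to 0.43 (-0.10 and -0.13 without WT replicates 2 and 3, -0.67 without EED-/- replicate 3), and was -0.21 by limma-voom and -0.23 with the replicate block. Spred1 ranged from -0.15 to 0.06 (0.05 without WT replicate 2, 0.02 and 0.06 without EED-/- replicates 1 and 2), and was 0.08 under upper-quartile scaling and 0.06 under library size alone. The cause was not tested.

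With the replicate number as a block, 1 member was called higher and 4 lower. Libraries of the same number did not deviate together (correlations 0.028, -0.233 and -0.001), and no WT library correlated best with the EED-/- library of its own number, so the numbers are not taken as pairs. Low counts limit Fgf23, Fgfr4, Fgf3 and the 9 members under the filter.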
